A study of Mus musculus with 4 samples.

Results

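The genes of the mitotic apparatus were followed in regenerating mouse liver after an siRNA against the acute phase gene Orm1. The set holds components of the spindle checkpoint, the centromere and kinetochore, mitotic kinesins, spindle factors, cytokinesis and chromosomal passenger proteins, condensin, and proteins of sister chromatid cohesion and separation. The 54 genes were named by function, with earlier results of these data known. Of them, 41 had at least 1 probe set that the platform's annotation gives to that gene alone, among 10923 genes measured in this way. The 41 genes were read by 63 probe sets, and the value of a gene is the mean of its probe sets. The other 13, Bub1, Kif15, Kif20b, Cenpe, Cenph, Cenpi, Cenpl, Spc24, Tpx2, Cdca8, Espl1, Melk and Cdkn3, had no such probe set and were not analysed here.

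The siOrm group (2 arrays) came from mice injected once with an siRNA against Orm1 in Invivofectamine 3.0, a lipid carrier that takes siRNA to the liver, and the siControl group (2 arrays) from mice labelled as given a control siRNA. All were male C57BL6/J mice aged 6 to 13 weeks. In both groups 40% of the liver had been removed 3 days after the injection, and the remaining liver was taken 48 hours after that operation; there was no group without hepatectomy. Whether each array stands for a single animal or pooled livers is not stated, and the spread that p-values rest on may therefore be technical. Titles of the siOrm arrays end in numbers that might mean Orm1 and Orm2 as targets, whereas source name and description give both the same group.

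After partial hepatectomy, hepatocytes leave quiescence, copy their DNA and divide, and the other liver cells follow. Many of the genes described here are hardly transcribed in resting cells and are switched on together from late S phase to mitosis. Their products condense chromosomes, attach them to spindle microtubules, hold back anaphase until attachment is complete and then split the cell. Hepatocytes can also pass mitosis without cytokinesis and become binucleate.

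Each value is a log2 signal (base 2 assumed) minus the gene's 4-array median, taken per probe set, and differences are siOrm minus siControl. The table was centred by its depositors, so it shows neither how strongly a gene was expressed nor whether one gene was higher than another. For a gene with 1 probe set, both middle arrays lie equally far from 0 on opposite sides by construction. For the same reason the liver label could not be checked by level: the 10 hepatocyte marker genes measured, such as Alb and Ttr, have values but no level.

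One control array stood apart. Pairs of arrays differed, gene by gene, with a standard deviation of 0.249 within siOrm and 0.384 within siControl, while siOrm replicate 2 and siControl replicate 1 differed by 0.233. Values above 1 were seen for 12 and 0 genes in the siOrm arrays, against 12 and 137 genes in siControl replicates 1 and 2. The targeted gene separated the groups only weakly, with Orm1 at -0.24 and -0.02 in the siOrm livers, against 0.02 and 0.19 in the siControl livers (difference -0.23, SE 0.15, adjusted p = 0.994 by limma). Leaving out siControl replicate 2 gave -0.14, and leaving out siOrm replicate 1 gave -0.12. The related genes Orm2 and Orm3, whose RNAs resemble that of Orm1 closely enough that probes may share them, differed by -1.08 (SE 0.34) and -0.91 (SE 0.34). With siControl replicate 2 left out these were -0.71 for Orm2 and -0.39 for Orm3. Leaving out siOrm replicate 1 put Orm2 at -0.69, and leaving out siControl replicate 1 put Orm3 at -1.43.

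Most mitotic apparatus genes lay lower in the siOrm livers, but none passed the test across all genes. In 31 of the 41 genes the groups were apart downwards, meaning that each siOrm array lay under each siControl array; 15.3% of all genes had that order. In 1 gene, Pttg1, they were apart upwards, as in 17% of all genes. The difference was below 0 in 39 of the 41, against 47.8% of all genes, and above 0 in Nek2 and Pttg1. Its median over the 41 genes was -0.37, against 0.01 over all genes. The quartiles of the 41 differences were -0.60 and -0.20. Because the genes were chosen with earlier results of these data known, such counts describe the set and are no independent test.

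By limma with Benjamini-Hochberg adjustment over all genes, 0 of the 41 passed 0.05, as did 0% of all genes. At an unadjusted p under 0.05, 16 of the 41 were lower and 0 higher, where 2.58% of all genes were lower and 2.18% higher. The count of 16 depended on the arrays used, and so did the share of all genes at that p. Leaving out 1 array keeps a single array in 1 group, so only the median of the 41 differences is given. It was -0.24 without siControl replicate 2 and -0.49 without siControl replicate 1. Without siOrm replicate 1 it was -0.34, and without siOrm replicate 2 it was -0.36. With all arrays the 16 were Mad2l1, Nuf2, Kif11, Kif20a, Hmmr, Ckap2, Stmn1, Prc1, Racgap1, Ect2, Smc2, Top2a, Mki67, Cdca5, Cdca3 and Ube2c. Cdca3 had the smallest p of the set (adjusted p = 0.912). Because the tissue was measured in bulk, fewer dividing cells and less of these RNAs per dividing cell cannot be told apart.

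**Figure D1:**
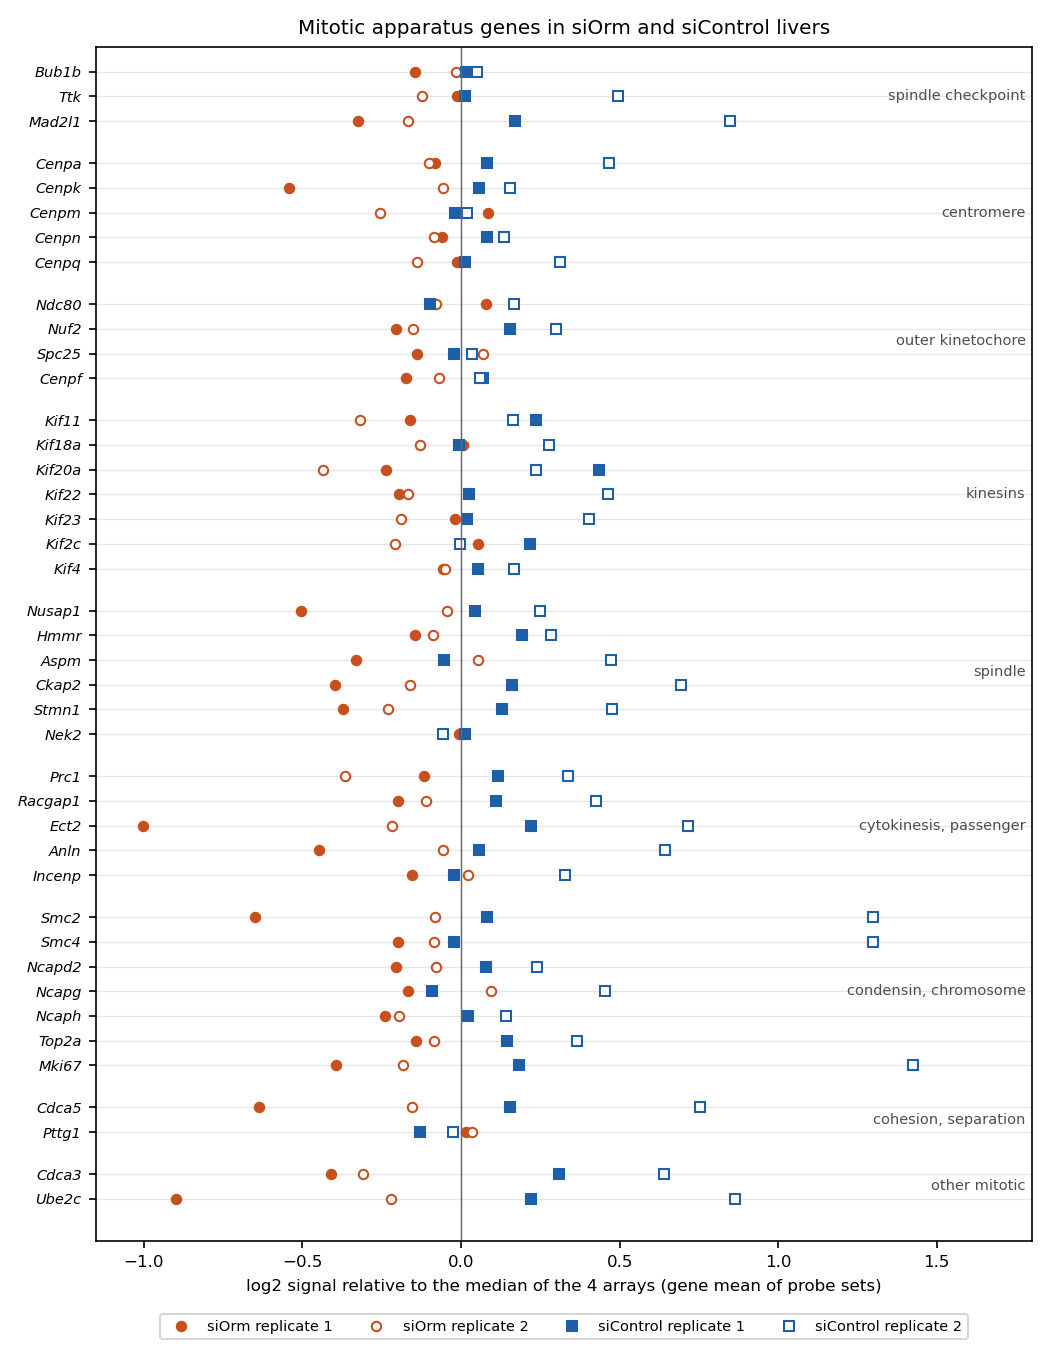
Log2 signal of the 41 measured genes relative to the median of the 4 arrays (x axis), 1 row per gene, grouped by role. Filled and open circles are siOrm replicates 1 and 2, filled and open squares siControl replicates 1 and 2. In 31 rows both circles lie left of both squares, and the open square of siControl replicate 2 is the rightmost point in 33.

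**Figure D2:**
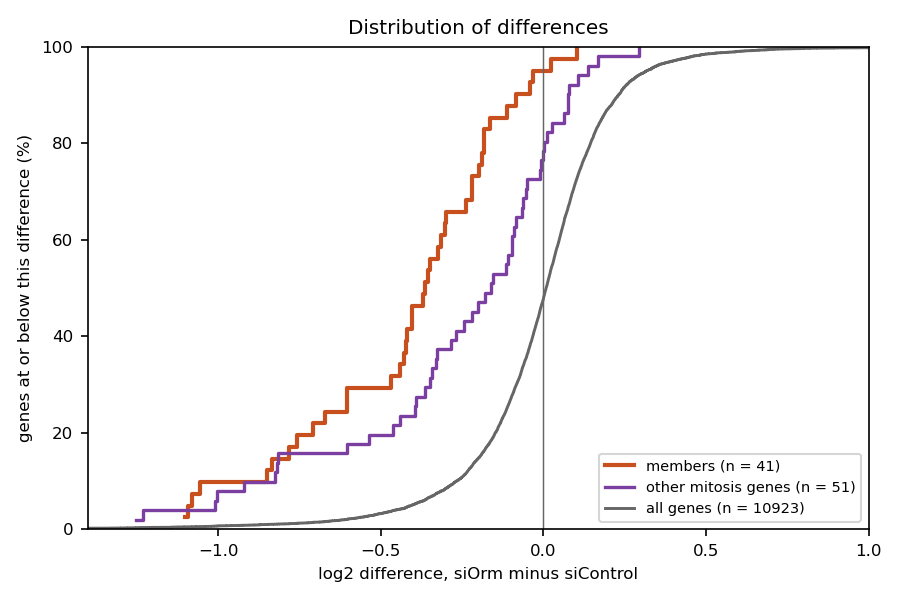
Cumulative share of genes (y axis, percent) at or below a given log2 difference, siOrm minus siControl (x axis, shown from -1.4 to 1), for the 41 genes, 51 other mitosis genes and all 10923 genes. At the medians the curve of the 41 genes lies left of that of all genes, at -0.37 and 0.01, with the other mitosis genes between them, at -0.16. In the far left tail the order differs, as the lowest differences were -1.10, -2.15 and -1.25 in the same sequence.

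Most of the promoters that could be read held a short element that did not enter the choice of the genes. Many mitotic genes carry a cell cycle genes homology region (CHR), a short element near the start that is bound by the DREAM repressor in resting cells and by B-MYB and FOXM1 complexes in G2, often with an upstream CCAAT box bound by NF-Y. The RefSeq promoter table of GRCm38.p6 holds a window of 300 bases, 250 before and 50 after the annotated start, for 37 of the 41 genes, and the first listed window was used. The CHR letters TTTGAA, on either strand, were in 27 of these 37 windows (73%), against 12.2% of 8764 windows of genes on the array and 17.9% of all 32851 windows of the table. Within 50 bases of the start they were in 62.2% of the genes' windows and in 2.91% of those on the array. CCAAT on either strand was in 73% of them, against 38% on the array, and both elements together in 62.2%, against 4.94%. No CHR match overlapped a CCAAT match in any of these windows. The E2F letters TTTCCCGC or TTTGGCGC were in 10.8% of them, against 2.89% on the array. Of the 28 windows of genes apart downwards, 22 held the CHR letters, and of the other 9 windows 5 did. For CCAAT the counts were also 22 and 5. The E2F letters went the other way, in 1 of the 28 and in 3 of the 9. None of these differences was tested. The windows of Mad2l1, Nuf2, Kif18a, Nusap1, Ncaph and Pttg1 held neither CHR nor CCAAT letters. A match describes the letters only.

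The stretches below are the 150 bases before the annotated start of 7 genes (GRCm38.p6, from RefSeq, 5′ to 3′ on the gene's strand). The first 6 belong to genes with lower signal in the siOrm livers and CHR matches in this stretch. Pttg1, the gene apart upwards, holds neither element there. Nek2, also above 0, has 2 CCAAT matches in its window, and Mad2l1, Nuf2, Nusap1 and Ncaph, apart downwards, have neither element in theirs. The 7 stretches therefore do not show whether the elements go with lower signal. Capitals mark the CHR letters (TTTGAA or, on the other strand, TTCAAA) and the CCAAT letters (CCAAT or ATTGG).
Ube2c (chr2:164769779-164769928, plus strand): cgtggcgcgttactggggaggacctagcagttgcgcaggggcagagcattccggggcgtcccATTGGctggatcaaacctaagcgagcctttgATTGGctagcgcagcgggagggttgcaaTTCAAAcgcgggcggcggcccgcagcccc
Mki67 (chr7:135716380-135716529, minus strand): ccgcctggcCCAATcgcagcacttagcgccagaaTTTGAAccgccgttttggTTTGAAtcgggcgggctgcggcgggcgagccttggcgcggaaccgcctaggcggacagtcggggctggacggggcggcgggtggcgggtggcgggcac
Ect2 (chr3:27153879-27154028, minus strand): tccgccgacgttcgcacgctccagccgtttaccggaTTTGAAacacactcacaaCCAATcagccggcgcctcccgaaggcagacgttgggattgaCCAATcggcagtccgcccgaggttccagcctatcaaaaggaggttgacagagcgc
Cdca5 (chr19:6084947-6085096, plus strand): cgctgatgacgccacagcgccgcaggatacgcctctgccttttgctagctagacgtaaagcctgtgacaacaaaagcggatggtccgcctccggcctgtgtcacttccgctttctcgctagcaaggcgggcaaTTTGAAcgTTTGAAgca
Kif11 (chr19:37376232-37376381, plus strand): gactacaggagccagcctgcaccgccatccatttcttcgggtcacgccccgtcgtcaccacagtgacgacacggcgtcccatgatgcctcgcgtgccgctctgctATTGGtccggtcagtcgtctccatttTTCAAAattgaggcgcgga
Top2a (chr11:99024190-99024339, minus strand): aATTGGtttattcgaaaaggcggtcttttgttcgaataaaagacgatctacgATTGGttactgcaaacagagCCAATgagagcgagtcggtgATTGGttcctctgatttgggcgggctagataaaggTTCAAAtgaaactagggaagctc
Pttg1 (chr11:43425982-43426131, minus strand): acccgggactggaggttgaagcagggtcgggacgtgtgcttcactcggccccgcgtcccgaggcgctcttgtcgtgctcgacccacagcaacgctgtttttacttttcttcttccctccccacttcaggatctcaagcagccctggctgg
In Ube2c the CHR match begins 29 bases before the start, below a pair of CCAAT matches at 88 and 57 bases. Mki67 and Cdca5 each hold 2 CHR matches in the stretch, those of Cdca5 at 17 and 9 bases before the start. In Kif11 the matches stand at 19 and 45 bases, and in Top2a the CHR match at 23 bases lies downstream of 4 CCAAT matches. Ect2 has its CHR match further off, at 114 bases, with another 40 bases after the start, and the pair in Mki67 lies at 116 and 98 bases.

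**Figure D3:**
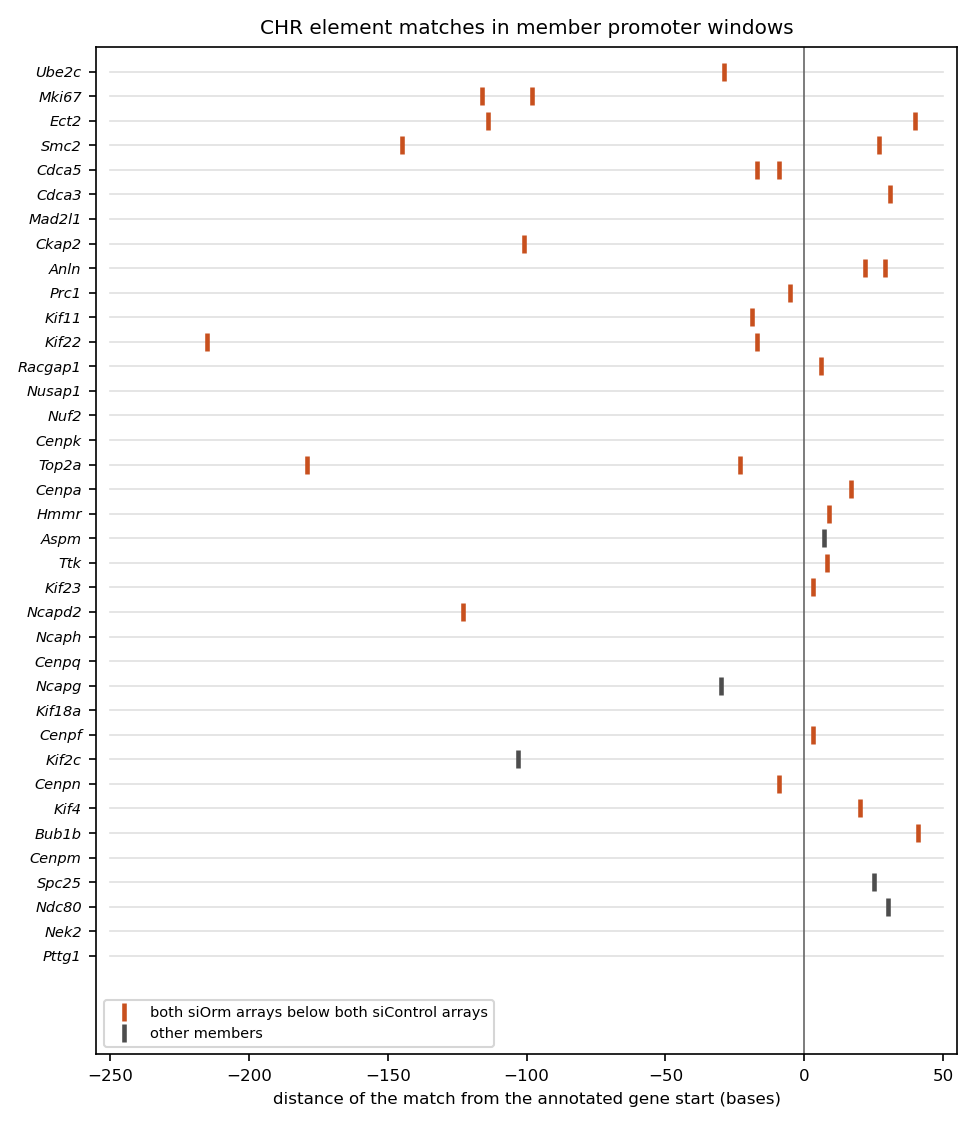
Position of CHR matches in the promoter windows of 37 of the genes, as distance from the annotated start in bases (x axis, 250 before to 50 after). Genes run from the most negative difference, siOrm minus siControl, at the top to the highest at the bottom, and colour marks the genes apart downwards. In 23 of the 37 windows a match lies within 50 bases of the start, and Nek2 and Pttg1 at the bottom have none.

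The spindle checkpoint was read by 3 genes, and in all 3 the siOrm arrays lay below the siControl arrays. Mad2l1 encodes MAD2, which binds CDC20 and holds back the anaphase-promoting complex at unattached kinetochores. It stood at -0.33 and -0.17 in the siOrm livers, against 0.17 and 0.85 in the siControl livers, a difference of -0.76 (SE 0.24, 95% interval -1.36 to -0.15). Its highest value was that of siControl replicate 2, and without that array the difference was -0.42. Ttk, the kinase MPS1 that starts checkpoint signalling, was at -0.01 and -0.12 in siOrm, against 0.01 and 0.50 in siControl. Its difference of -0.32 (SE 0.19) shrank to -0.08 without siControl replicate 2. The gene of the kinase-related BUBR1, Bub1b, showed the least, at -0.15 and -0.01 in siOrm, against 0.01 and 0.05 in siControl (difference -0.11, SE 0.13, and -0.05 without siOrm replicate 1).

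Centromere genes had small differences, with a median of -0.24 over 5 genes, 4 of them apart downwards and 0 with an unadjusted p under 0.05; the median was -0.16 without siControl replicate 2. Cenpa encodes the histone H3 variant that marks centromeres. Its signal was -0.08 and -0.10 in siOrm livers, against 0.08 and 0.47 in siControl livers, which gave a difference of -0.37 (SE 0.17), or -0.17 without siControl replicate 2. Cenpk and Cenpq encode subunits of the inner kinetochore network that is built on CENP-A. Cenpk was lowest in siOrm replicate 1, at -0.54 and -0.06 in siOrm, against 0.06 and 0.15 in siControl. The difference of -0.40 (SE 0.19) became -0.16 without siOrm replicate 1 and -0.65 without siOrm replicate 2. Cenpq stood at -0.01 and -0.14 in siOrm, against 0.01 and 0.31 in siControl (difference -0.24, SE 0.16, and -0.09 without siControl replicate 2). Cenpn, which reads CENP-A nucleosomes, differed by -0.18 and Cenpm by -0.09. The arrays of Cenpm overlapped, and it turned to 0.08 without siOrm replicate 2.

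The outer kinetochore, the layer that grips microtubules, had a median of -0.11 over 4 genes, the least negative of the roles with all 4 arrays. Without siControl replicate 2 it was -0.10, and that of the checkpoint genes was -0.095. The NDC80 complex is made of NDC80, NUF2, SPC24 and SPC25, of which 3 were measured and only Nuf2 was apart. Nuf2 was at -0.20 and -0.15 in siOrm, against 0.15 and 0.30 in siControl (difference -0.40, SE 0.13, interval -0.73 to -0.07). Its partners Spc25 and Ndc80 differed by -0.04 (SE 0.14) and -0.03 (SE 0.15), with overlapping arrays. Spc25 was -0.14 and 0.07 in siOrm, against -0.02 and 0.03 in siControl. Their intervals ran over 0, to -0.39 for Spc25 and to -0.42 for Ndc80, and the difference between subunits was not tested. Ndc80 turned to 0.10 without siControl replicate 2, and leaving out siOrm replicate 2 gave 0.047. Spc25 was at -0.012 without siControl replicate 2 and turned to 0.064 without siOrm replicate 1. Cenpf, a large protein of the kinetochore corona, stood at -0.18 and -0.07 in siOrm, against 0.07 and 0.06 in siControl (difference -0.19, SE 0.13). Its probe sets disagreed, one at -0.62 and the other at 0.25.

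Among the kinesins, motor proteins that build the spindle and its midzone, all 7 measured genes had differences below 0 and 5 were apart downwards. Kif20a, a midzone kinesin needed for cytokinesis, was one of 5 genes here that were highest in siControl replicate 1. It stood at -0.24 and -0.43 in siOrm, against 0.44 and 0.24 in siControl, and differed by -0.67 (SE 0.15, interval -1.05 to -0.30). Without siControl replicate 2 the difference was -0.77. Kif11, the Eg5 motor that pushes spindle poles apart, had the same order, at -0.16 and -0.32 in siOrm, against 0.24 and 0.16 in siControl. Its difference was -0.44 (SE 0.13), and -0.48 without siControl replicate 2. Kif22, a chromokinesin that moves chromosome arms, was at -0.20 and -0.17 in siOrm, against 0.03 and 0.46 in siControl (difference -0.43, SE 0.18, and -0.21 without siControl replicate 2). The other kinesins, Kif23, Kif18a, Kif2c and Kif4, lay between -0.32 and -0.16, and the arrays of Kif18a and Kif2c overlapped. These motors act in the midzone (Kif23), in chromosome alignment (Kif18a), in freeing wrong attachments (Kif2c) and on chromosome arms (Kif4). Without siControl replicate 2, Kif23 was at -0.12, Kif18a at -0.055 and Kif4 at -0.11. Kif2c moved both ways, to -0.29 without siControl replicate 2, -0.31 without siOrm replicate 1, to -0.073 without siControl replicate 1, and to -0.053 with siOrm replicate 2 left out.

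The spindle factors had a median of -0.39 over 6 genes, 4 of them apart downwards. Stmn1 encodes stathmin, which takes up tubulin dimers and destabilises microtubules. Its values were -0.37 and -0.23 in siOrm livers, against 0.13 and 0.48 in siControl livers (difference -0.60, SE 0.17, interval -1.02 to -0.19). The probe set of Stmn1 that its name marks as free of shared sequence gave -0.26, and the other -0.95. Ckap2, a microtubule-binding protein of the spindle poles, was at -0.40 and -0.16 in siOrm, against 0.16 and 0.69 in siControl. It differed by -0.71 (SE 0.21), and by -0.44 without siControl replicate 2. Hmmr encodes a hyaluronan receptor that also binds spindle microtubules, and its arrays lay at -0.14 and -0.09 in siOrm, against 0.19 and 0.28 in siControl (difference -0.35, SE 0.13). One probe set of Hmmr gave -0.66 and the other -0.05. Nek2, a kinase that separates centrosomes, showed no detectable difference, with -0.01 and 0.01 in siOrm, against 0.01 and -0.06 in siControl (difference 0.02, SE 0.13, interval -0.29 to 0.34, and -0.011 without siControl replicate 2). Nusap1, a microtubule bundling protein, differed by -0.42, or by -0.19 without siOrm replicate 1 and -0.65 without siOrm replicate 2. Aspm, a protein of the spindle poles, differed by -0.35 with overlapping arrays, and by -0.09 without siControl replicate 2.

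Cytokinesis and passenger genes had a median of -0.47 over 5 genes (-0.31 without siControl replicate 2), with 4 apart downwards. Ect2 encodes the exchange factor that activates RhoA at the cell equator. It was the lowest of the set in siOrm replicate 1, at -1.004 and -0.22 in siOrm, against 0.22 and 0.72 in siControl. The difference was -1.08 (SE 0.30, interval -1.84 to -0.32), which is 0.473 of the siControl signal, and it was -0.69 without siOrm replicate 1. Prc1, which bundles the microtubules of the midzone, stood at -0.12 and -0.36 in siOrm, against 0.12 and 0.34 in siControl (difference -0.47, SE 0.16). Racgap1 forms the centralspindlin complex with the product of Kif23 and docks ECT2 there. Its values were -0.20 and -0.11 in siOrm, against 0.11 and 0.43 in siControl, a difference of -0.42 (SE 0.16), or -0.27 without siControl replicate 2. Anln, a scaffold of the contractile ring, differed by -0.60 and by -0.31 without siControl replicate 2, and Incenp, the scaffold of the Aurora B complex, by -0.22 with overlapping arrays and by -0.04 without siControl replicate 2.

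The condensin and chromosome genes, like those of several other roles, were led by 1 array. Condensin, built on SMC2 and SMC4, compacts chromosomes, topoisomerase II alpha untangles them, and Ki-67, the protein of Mki67, coats them and is the usual marker of cycling cells. All 7 genes of this role were highest in siControl replicate 2, as were all checkpoint, cytokinesis and passenger genes, Cdca3 and Ube2c. All 7 were also lowest in siOrm replicate 1. The median of the role was -0.37, and -0.24 without siControl replicate 2. Mki67 was at -0.40 and -0.18 in siOrm, against 0.18 and 1.43 in siControl, a difference of -1.09 (SE 0.40, interval -2.08 to -0.10). Without siControl replicate 2 it was -0.47, and without siControl replicate 1 it was -1.72. Smc2 stood at -0.65 and -0.08 in siOrm, against 0.08 and 1.30 in siControl (difference -1.06, SE 0.42), and its difference without siControl replicate 2 was -0.45. Smc4, at -0.78 with all arrays (SE 0.41), kept -0.12 without it. The 2 probe sets of Top2a disagreed, and their mean stood at -0.14 and -0.08 in siOrm, against 0.15 and 0.37 in siControl (difference -0.37, SE 0.14). One of them, with 0.09 and 1.08 in the siControl arrays, differed by -0.81, and the other, with 0.20 and -0.35 there, by 0.075. The condensin subunits Ncapd2, Ncaph and Ncapg differed by -0.30, -0.30 and -0.22, and Ncapg turned to 0.06 without siControl replicate 2.

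The cohesion and separation genes measured lay on opposite sides of 0. Cdca5 encodes sororin, which protects cohesin on replicated DNA, and Pttg1 encodes securin, which holds separase inactive until anaphase. Cdca5 was at -0.64 and -0.15 in siOrm, against 0.15 and 0.75 in siControl (difference -0.85, SE 0.26, interval -1.50 to -0.20), and differed by -0.55 without siControl replicate 2. Pttg1 stood at 0.02 and 0.03 in siOrm, against -0.13 and -0.03 in siControl. It was the only one of the 41 apart upwards, but the difference of 0.10 (SE 0.13, interval -0.22 to 0.42) was within the error, and 1 of its 3 probe sets gave -0.069. It was 0.15 without siControl replicate 2 and 0.051 without siControl replicate 1.

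Cdca3 and Ube2c, both tied to the destruction of mitotic regulators, had the smallest p and the most negative difference of the set. Cdca3 promotes mitotic entry and is itself degraded in G1, and Ube2c encodes the ubiquitin-conjugating enzyme of the anaphase-promoting complex. Cdca3 stood at -0.41 and -0.31 in siOrm, against 0.31 and 0.64 in siControl. Its difference was -0.84 (SE 0.16, interval -1.24 to -0.43), 0.560 of the siControl signal, and -0.67 without siControl replicate 2. Ube2c differed by -1.10 (SE 0.31, interval -1.86 to -0.34), with -0.90 and -0.22 in siOrm, against 0.22 and 0.86 in siControl. Without siControl replicate 2 it was -0.78.

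The order of the arrays was alike in most of these genes. In 33 of the 41 the highest array was siControl replicate 2, against 3070 of all 10923 genes. In 27 of the 41 the lowest was siOrm replicate 1, against 3097 of all genes. The mean over the 41 genes was -0.24 and -0.13 in the siOrm arrays, against 0.08 and 0.41 in the siControl arrays. With siControl replicate 2 left out, 38 of the 41 differences were still below 0, against 53.1% of all genes. The median of the 41 was then -0.24, against -0.01 over all genes. Both siOrm arrays were then below siControl replicate 1 in 33 of the 41, where 36.8% of all genes were. With siControl replicate 1 left out, so that replicate 2 was the sole control, 6 of the 41 passed the adjusted test by limma (Mad2l1, Ckap2, Smc2, Smc4, Mki67 and Cdca3, adjusted p from 0.0130 to 0.0492), among 229 genes in all. That fit has a single control array, the one that stood apart, and takes its spread from the siOrm pair alone, assuming that controls vary alike, so it holds no measure of control variation.

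**Figure D4:**
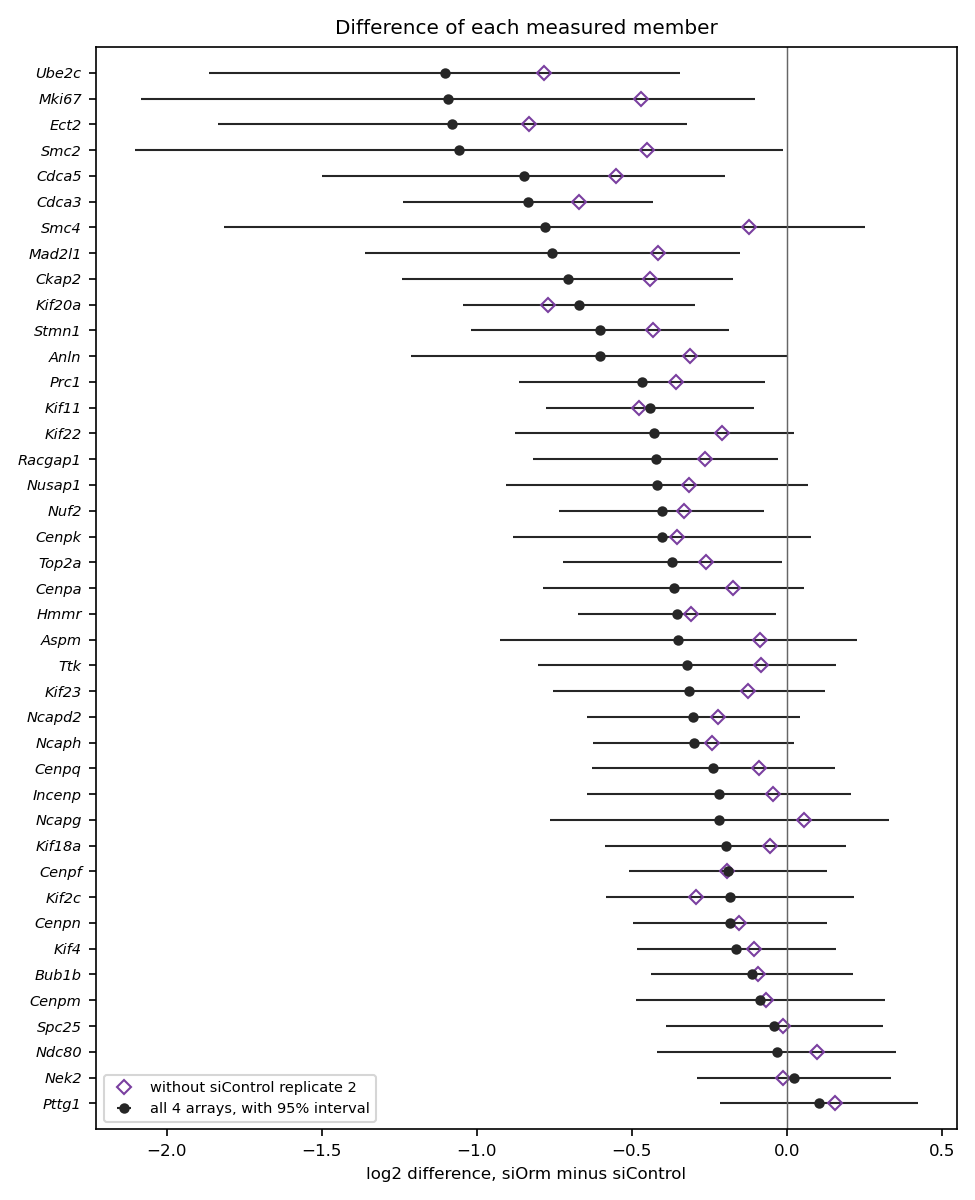
Log2 difference, siOrm minus siControl (x axis), of the 41 genes, ordered by size. Black points with bars are the differences over all 4 arrays with their 95% intervals from limma, and open diamonds are the differences without siControl replicate 2. The intervals of 16 genes lie wholly below 0, and the diamonds of 38 genes lie below 0.

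Probe sets of 1 gene did not always point the same way. Of the 63 probe sets, 54 had a difference below 0, and 36 were apart downwards. No share over all probe sets is given beside these counts, and the shares of genes do not apply to them. Among the 16 genes read by more than 1 probe set, those of 7 differed in sign, namely Cenpf, Cenpn, Incenp, Kif2c, Ncaph, Pttg1 and Top2a. For Top2a the SEs of the probe sets were 0.34 and 0.22. For Ncaph the probe sets gave -0.60 and 0.00. Smc4 ranged from -1.22 to -0.22 over 3 probe sets. Since the centred table shows no signal level, whether the flat probe sets were near background could not be seen.

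Other mitosis genes, listed by function with earlier results of these data known and not among the 41, had a less negative median of -0.16. This list mixes mitotic kinases and cyclins with cohesin and anaphase-promoting complex subunits. Its differences ran from -1.25 to 0.29, against -1.10 to 0.10 for the 41, and why the medians differ was not tested. Of 51 measured, 22 (43.1%) were apart downwards, against 15.3% of all genes. Apart upwards were 2, Cit and Cenpb, against 17% of all genes. At an unadjusted p under 0.05 (limma), 9 were lower (17.6%) and 0 higher, against 2.58% and 2.18% of all genes. The adjusted test was passed by 0 of the 51. The lowest p among them belonged to Cdc20, whose product activates the anaphase-promoting complex, at -0.69 and -0.45 in siOrm, against 0.45 and 0.87 in siControl (difference -1.23, SE 0.19, adjusted p = 0.857). Birc5, the survivin subunit of the passenger complex, differed by -1.25 (SE 0.23), and the cyclins Ccnb2 and Ccna2 by -1.005 (SE 0.21) and -0.82 (SE 0.23). Aurka, the spindle pole kinase, differed by -0.92 (SE 0.27) with all arrays and by -0.52 without siControl replicate 2, and the kinetochore gene Dsn1 by -0.44 (SE 0.15). The differences of Cit, the citron kinase of the midbody, and of Cenpb, which binds centromeric satellite DNA, were 0.14 (SE 0.13) and 0.07 (SE 0.13).

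The means of the marker lists of several other liver cell types were highest in the same array as the mitotic genes. Over 14 macrophage markers the mean was -0.02 and -0.07 in siOrm, against -0.24 and 0.65 in siControl. Of the 14, 12 were highest in siControl replicate 2. Over all 10923 genes, 3070 were highest in siControl replicate 2 and 2980 in siControl replicate 1. Neutrophil markers (13 genes) averaged -0.12 and -0.07 in siOrm, against 0.13 and 0.59 in siControl. Their medians, however, were -0.09 and -0.04 in siOrm, against 0.10 and 0.08 in siControl. Apart downwards were 5 of these genes and apart upwards 1, against 15.3% and 17% of all genes. Of the 13, 6 were highest in siControl replicate 2 and 5 in siControl replicate 1. S100a8 (2.75), Chil3 (1.96), S100a9 (1.95) and Lcn2 (1.26) led siControl replicate 2, whereas Camp, Ltf, Ngp, Mpo, Elane and Mmp8 lay below 0 there; these genes were picked out after their values were seen. The means of endothelial (11 genes) and stellate cell markers (11 genes) were also highest in siControl replicate 2, at 0.26 and 0.41, with 8 of the 11 genes highest there in each list. Lymphocyte (12 genes), erythroid (8 genes) and hepatocyte markers (10 genes) were lowest there, at -0.16, -0.09 and -0.07, while biliary markers (5 genes) stood at 0.11. In siControl replicate 1, macrophage markers had their lowest mean of the 4 arrays, at -0.24. Neutrophil markers and the 41 mitotic genes stood at 0.13 and 0.08 there, each above their means in both siOrm arrays. The part of these cells in the mitotic differences was not tested, and no list could be checked for genes at 0 because the table is centred.

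**Figure D5:**
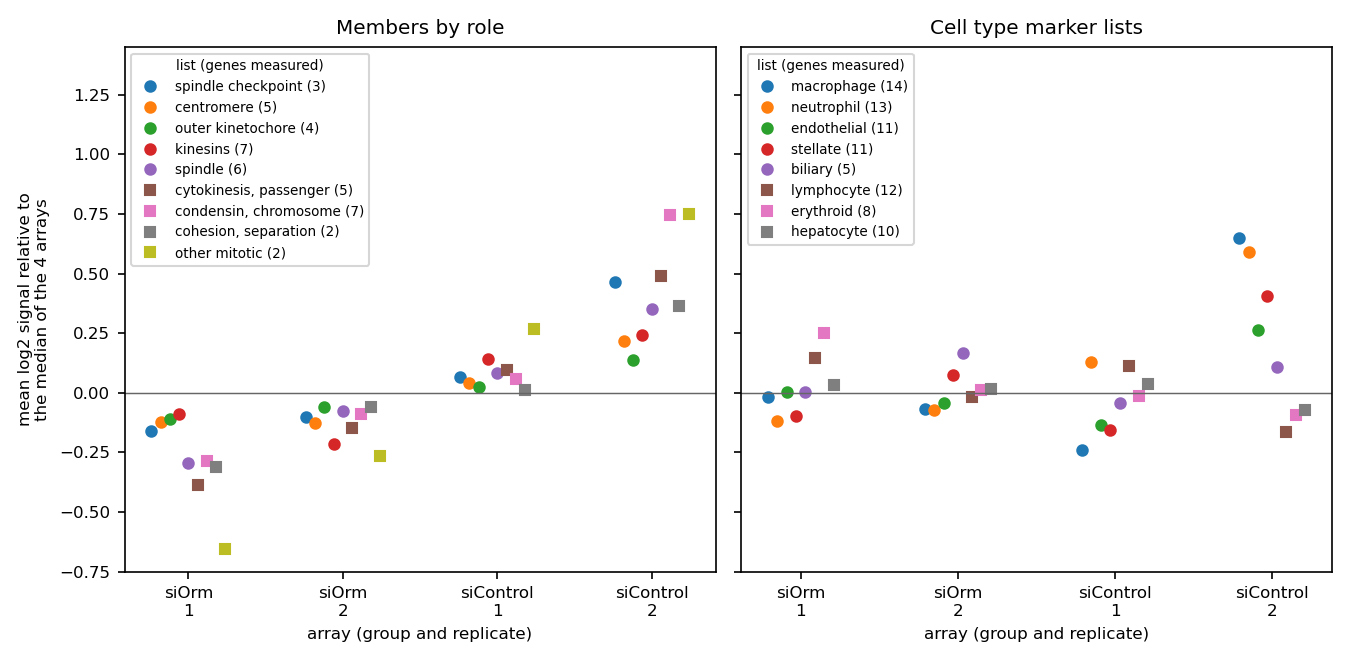
Mean log2 signal relative to the median of the 4 arrays (y axis) in each array (x axis), for the 9 roles of the mitotic genes (left) and for 8 marker lists of cell types (right), with the number of genes measured in brackets. Every role has its highest mean in siControl replicate 2 and means below 0 in both siOrm arrays. The means of macrophage, neutrophil, stellate and endothelial markers are also highest in siControl replicate 2.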

How the data were processed

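Liver RNA of 2 siOrm and 2 siControl samples was read on single-colour arrays. By the series text these were Affymetrix Mouse Genome 430A 2.0 arrays; the labels' protocols instead describe another maker's labelling and cultured cells. The deposited table held log2 signals of 18852 probe sets, centred on the median of the 4 arrays before deposit (largest row median 4.8e-07). Base 2 is assumed; with natural logarithms each difference would be 1.44 times larger. How the authors normalized or filtered the arrays is not given in the sources used here, and 0 further per-sample columns were present.

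The platform's annotation gave 1 symbol to 17209 probe sets, several to 564 and none to 1044, and 35 were controls. Probe sets with 1 symbol were averaged to 10923 genes. Differences were tested (limma 3.58.1, R 4.3.3; lmFit and two-sided eBayes with a constant prior of 3.60 degrees of freedom beside 2 residual). P-values were adjusted by Benjamini-Hochberg over the whole table, and the fit was tested on simulated data. The members and gene lists were chosen with earlier results of these data known. Values in every array are given for the 3 genes of each role with the smallest p and for genes with a positive difference. Other mitosis genes are named by the 6 smallest p and by separation upwards. Alternatives were other variance priors, scalings and probe set summaries, the replicate number as a block, and each array left out. The number of arrays limits what could be resolved.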

Additional observations from a re-analysis of the deposited data

How the results depend on the processing

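By limma, 0 genes passed the adjusted test. The count was 11 with a trend prior (0 of them among the 41 mitotic genes; the cause was not tested), 0 to 229 with 1 array left out, the 229 without siControl replicate 1, and 0 under the other alternatives. Of the 41 mitotic genes, 16 were lower at an unadjusted p under 0.05; that count was 7 of the 32 genes that keep a probe set when only names ending in plain _at are used, and 3 to 27 with 1 array left out. The genes apart downwards, 31 of the 41, became 19 of those 32, where 14.8% of all genes were apart downwards. With 1 array left out they were 33 to 36 of the 41. The share of all genes was then 23.5% to 36.8%, as a smaller group separates more easily. The median of -0.37 ran from -0.49 to -0.24 with 1 array left out and would be -0.53 if the values were natural logarithms. For the other mitosis genes, 22 apart downwards became 25 to 34, 9 with an unadjusted p under 0.05 became 4 to 16, and the median of -0.16 ran from -0.22 to -0.14 with 1 array left out. That median was -0.23 with plain _at probe sets and -0.22 with the probe set of largest spread, a choice made after seeing the data.

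Signs turned in 9 of the 41 genes. With plain _at probe sets alone, Cenpn was at 0.052, Ncaph at 0.0014, Top2a at 0.075 and Pttg1 at -0.069, and with quantile normalization Spc25 was at 0.0050. With 1 array left out, Cenpm ran from -0.26 to 0.085, Ndc80 from -0.17 to 0.099, Spc25 from -0.14 to 0.064, Nek2 from -0.011 to 0.056 and Ncapg from -0.49 to 0.056. With the replicate number as a block, 20 of the 41 were lower at an unadjusted p under 0.05 by limma, against 3.98% of all genes. The adjusted test was passed by 0. The deviations of same-numbered arrays correlated at 0.132, over 2 pairs, and nothing in the labels says that a number pairs samples. With 2 arrays a group and a centred table, depth of signal over background could not be judged.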
